A study of Mus musculus with 28 samples.

Results

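The genes described here are the *Zfp* genes of the mouse that were well expressed in the amygdala. They were selected on a measured value, the mean raw count: a symbol in GENCODE M21 had to read Zfp, a number and at most a letter, without pseudogene (-ps) and antisense (os) names, and the gene had to be in both deposited count tables with a mean of 100 or more counts over all 28 mice. Of 400 symbols of this form, 399 were in both tables and 292 reached the mean, out of 49477 genes in both tables. *Zfp78* (mean count 100.6) and *Zfp273* (100.1) lay just inside the limit, and *Zfp354b* (98.1) and *Zfp454* (93.8) just outside it. Of the 107 genes below the limit, 73 had a mean of 10 or more counts and 4 had no count in any mouse. The mean over all mice is the only value the selection used, so the group differences below are not part of the rule. The gene family itself was chosen with earlier results of these data known.

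RNA came from the amygdala of adult female C57BL6/J mice studied in 2 separate batches. Water mice had no alcohol access, Acute mice had a single access to 20% alcohol, and Chronic mice were given the same 20% alcohol on alternate days through a month. Batch 1 comprised 4 Water animals, 4 Acute and 3 Chronic, and batch 2 comprised 6, 5 and 6 of these, with 1 library per animal. The alcohol mice chose between an alcohol and a water bottle, and the tissue was a micropunch that holds every cell type of the region.

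*Zfp* genes encode zinc finger proteins, most of them with fingers of the C2H2 type, in which a pair of cysteines and a pair of histidines hold a zinc ion and the finger contacts DNA or RNA. The largest class carries a KRAB domain at the start of the protein, which recruits the co-repressor encoded by *Trim28* and through it histone methyltransferase and heterochromatin proteins, and is known for silencing transposable elements and guarding imprinted loci. Many KRAB genes stand in clusters that arose by repeated duplication. Other *Zfp* genes encode chromatin cofactors, transcription factors of neural development, or proteins that act on RNA and ribosomes.

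Of the 292 genes, 289 are protein coding and 3 (*Zfp125*, *Zfp783*, *Zfp939*) are transcribed pseudogenes. A residue pattern of the KRAB A box was found in 144 of the 289 coding genes and not in 145; divergent boxes escape such a pattern. The proteins held a median of 10 C2H2 fingers and at most 36, and 6 had none that matched the finger pattern. Chromosome 7 carried 74 of the genes, chromosome 17 carried 31, and chromosomes 8 and 13 carried 22 each. In 13 runs of 5 or more genes whose starts lay within 500 kb of the next, 115 of the genes stood side by side.

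The promoters of 240 of the genes are in the RefSeq table for GRCm38.p6, with 292 start sites in all. In the 250 bases before the start, the median GC content was 55.6%, against 52.4% over 32851 promoters of all genes. It was 52.0% for the genes with the KRAB pattern and 61.6% for the others. The letters GGGCGG (a GC box), CCAAT (the box bound by NF-Y) and TCGCGA were searched on both strands; ATTGG, the reverse complement of CCAAT, can share letters with GGGCGG. The GC box stood in 42.1% of the members' promoters (32.7% of all promoters), CCAAT in 43.5% (33.8%) and TCGCGA in 4.79% (2.08%). Among genes with the KRAB pattern GGGCGG stood in 27.1% and CCAAT in 51.4%, and among the others in 56.8% and 35.8%. 4 promoters are printed because their genes recur below: *Zfp955a* and *Zfp189*, among the 5 with the smallest p for a lower level in Chronic mice, and *Zfp771* and *Zfp775*, among the 5 for a higher level. They are chr17:33255146-33255395 on the minus strand for *Zfp955a*, chr4:49520926-49521175 on the plus strand for *Zfp189*, chr7:127244276-127244525 on the plus strand for *Zfp771* and chr6:48601757-48602006 on the plus strand for *Zfp775*, each written 5′ to 3′ and ending at the base before the start, with matches to the 3 motifs in capitals.
Zfp955a: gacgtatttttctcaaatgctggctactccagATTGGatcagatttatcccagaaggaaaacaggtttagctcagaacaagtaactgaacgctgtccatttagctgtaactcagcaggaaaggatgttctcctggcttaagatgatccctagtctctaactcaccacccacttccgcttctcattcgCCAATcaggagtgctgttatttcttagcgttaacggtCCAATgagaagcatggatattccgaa
Zfp189: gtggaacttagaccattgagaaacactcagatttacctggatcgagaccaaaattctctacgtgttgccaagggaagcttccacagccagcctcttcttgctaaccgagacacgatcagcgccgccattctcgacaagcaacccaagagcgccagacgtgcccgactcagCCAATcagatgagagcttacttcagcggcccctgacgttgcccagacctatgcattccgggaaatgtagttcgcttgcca
Zfp771: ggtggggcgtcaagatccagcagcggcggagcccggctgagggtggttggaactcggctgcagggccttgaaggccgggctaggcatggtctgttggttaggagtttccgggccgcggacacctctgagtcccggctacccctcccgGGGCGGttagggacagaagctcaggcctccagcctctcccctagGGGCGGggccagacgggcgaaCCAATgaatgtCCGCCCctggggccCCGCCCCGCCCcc
Zfp775: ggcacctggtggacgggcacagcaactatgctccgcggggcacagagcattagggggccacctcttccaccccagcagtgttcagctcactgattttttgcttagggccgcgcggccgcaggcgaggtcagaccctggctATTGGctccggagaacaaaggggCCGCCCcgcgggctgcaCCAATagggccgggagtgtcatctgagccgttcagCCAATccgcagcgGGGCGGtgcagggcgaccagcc
The first had 44.0% GC and 3 CCAAT matches, and the second 53.2% GC and 1 CCAAT match; neither held GGGCGG. The promoter of *Zfp771* had 70.4% GC, 5 GGGCGG matches and 1 CCAAT match, and that of *Zfp775* 66.4% GC, 2 GGGCGG matches and 3 CCAAT matches. These 4 do not stand for all lower or higher members. Members lower in Chronic mice at an unadjusted p under 0.05 held GGGCGG in 40.9% of 44 promoters, with a median GC of 54.0%. Members higher there held it in 57.1% of only 7 promoters, with a median GC of 69.2%. Over all members these values were 42.1% and 55.6%.

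Total counts in both tables ran from 19597940 to 22533377 per mouse, and the members took 0.703% to 0.761% of them. Of the marker lists for cell types and for regions near the punch, none had a gene that changed at an adjusted p under 0.05 in any comparison, and none had a defining marker at 0 in every mouse. The summed level of the choroid plexus and ependyma list ran from 10.2 to 4208 CPM (counts scaled to a fixed library size) and that of 6 striatum markers from 317.0 to 1250 CPM, and in each batch the ranges of the Acute and of the Chronic mice overlapped that of the Water mice. The median log2 fold change of the striatum markers was -0.35 in Chronic and 0.014 in Acute mice, with 1 of 6 at an unadjusted p under 0.05 in Chronic mice. In the second batch their summed level had a median of 768.0 CPM for Water, 734.2 CPM for Acute and 485.9 CPM for Chronic mice, and in batch 1 the medians were 616.5, 772.2 and 660.7 CPM in that order. The 5 central amygdala markers had a median of 0.27 in Acute and 0.11 in Chronic mice, the choroid plexus and ependyma list -0.084 and -0.14, and the oligodendrocyte list 0.10 and 0.066. These differences exceed the median shifts of the members, and their part in the results below was not tested. In bulk tissue, fewer cells of a type and less RNA per cell cannot be told apart. Reads of a gene and an overlapping neighbour are divided by estimate, and 41 members overlap another tested gene.

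Per kilobase of exon, the median level of the members was 3.30 CPM. It was 6.97 CPM over the 11723 genes tested that reached the same mean of 100 counts, and 14.4% of the members lay above that value. Level was what the selection used, so this is a description alone. *Zfp365*, which encodes a brain protein that binds DISC1, stood far above the rest at 109.8 CPM per kb, followed by *Zfp706* at 42.5 and *Zfp106*, an RNA-binding protein needed for motor neuron and muscle upkeep, at 22.1. The lowest were *Zfp458* (0.713), *Zfp407* (0.716) and *Zfp92* (0.760). Genes with the KRAB pattern had a median of 2.70 CPM per kb and those without it 4.28. The highest KRAB gene was *Zfp445*, a guardian of imprinted loci, at 14.9 CPM per kb.

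**Figure D1:**
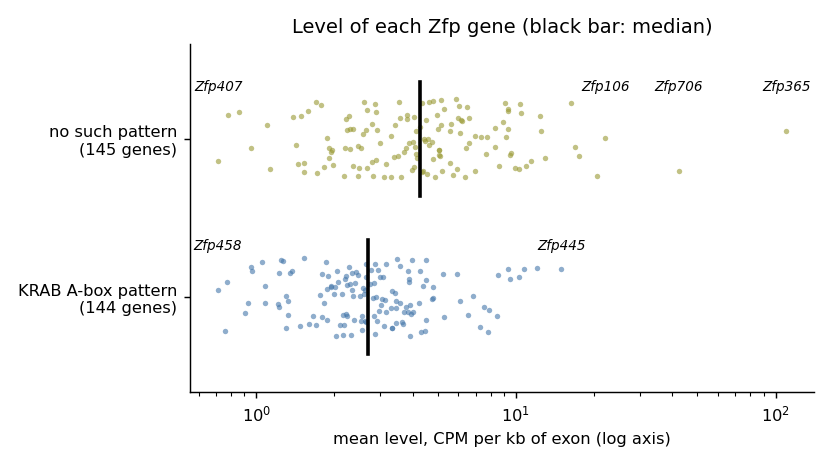
Mean level of each coding member over 28 mice, in CPM per kb of exon on a log axis, with genes carrying the KRAB A-box pattern below and the others above; points are genes, spread vertically for sight, and black bars are medians. The KRAB genes centre on 2.70 and the others on 4.28, and *Zfp365* stands alone at 109.8.

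Spread between mice was small. The SD of log2 CPM after removing the mean of each group and batch had a median of 0.11 over the members, 0.11 over all genes with a mean of 100 or more counts and 0.14 over all genes tested. *Zfp91*, a ubiquitin ligase with zinc fingers, was the steadiest (SD 0.049), with *Zfp239* (0.052) and *Zfp319* (0.054). The widest spread was that of *Zfp92* (0.34), *Zfp781* (0.31) and *Zfp423*, a developmental transcription factor (0.28).

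The log2 difference in level between batches (second minus first) ran from -0.39 to 6.38 over the members, with a median of -0.044. The largest differences were those of *Zfp407*, *Zfp532* and *Zfp869*. *Zfp407* had 0.213 CPM in batch 1 and 17.7 in batch 2, *Zfp532* had 31.9 and 64.0, and *Zfp869* had 12.8 and 23.3. The methods of the study name a single transcript index, with no separate one for a batch. The cause was not tested, and the levels of these 3 genes, with the pooled level and rank of *Zfp407*, may not be comparable between batches. *Zfp608*, listed in the second table alone and therefore no member, had medians of 603, 587 and 607.5 counts in its Water, Acute and Chronic mice.

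Whether acute access changed the members was asked by comparing Acute with Water mice, with batch in the fit. By edgeR's quasi-likelihood test with Benjamini-Hochberg adjustment over all 16266 genes tested, no member passed 0.05 and the lowest adjusted p was 0.384; over all genes 0.0% passed. At an unadjusted p under 0.05, 21 members were lower (7.19%; all genes 4.45%) and 8 were higher (2.74%; all genes 5.07%). The median log2 fold change was -0.013 (all genes 0.0011), and fitted values were below 0 for 168 of 292 members (57.5%; all genes 49.4%). Fold changes lay between -0.30 and 0.22. With the trend of each mouse on GC content and length removed, as described below, the median was 0.0040 (all genes 0.0031) and 46.6% of the members were fitted below 0 (all genes 48.2%).

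The members with the smallest p for a lower level in Acute mice were *Zfp738*, *Zfp729a*, *Zfp189*, *Zfp326* and *Zfp638*. *Zfp738* and *Zfp729a* are KRAB genes of one run on chromosome 13. For *Zfp738* (chr13:67658685-67687071), normalised counts in the first batch ran from 702.7 to 780.8 in Water mice (median 734.7) and from 623.1 to 687.4 in Acute mice (median 668.0), without overlap, and in the second from 628.8 to 725.7 (median 690.6) and from 609.2 to 699.3 (median 616.2). The log2 fold change was -0.13 ± 0.038 (SE; n = 9 and 10; edgeR adjusted p = 0.384; exact permutation p = 0.00189). *Zfp729a* was at -0.16 ± 0.047 (edgeR adjusted p = 0.384), below the Water mean of its batch in all 9 Acute mice.

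*Zfp189* encodes a KRAB protein known from work on stress resilience in the mouse prefrontal cortex. In the first batch it ran from 160.1 to 253.8 normalised counts in Water mice (median 214.4) and from 153.6 to 192.4 in Acute mice (median 172.4), and in the second from 206.7 to 238.4 (median 228.2) and from 151.8 to 217.3 (median 188.7). All 9 Acute mice lay below the Water mean of their batch, although the ranges overlapped in both batches. The fold change was -0.28 ± 0.083 on the log2 scale (edgeR adjusted p = 0.384; exact permutation p = 0.00427), with -0.29 in batch 1 and -0.26 in batch 2. *Zfp326*, a subunit of the DBIRD complex that links transcription and splicing, and *Zfp638*, a nuclear protein that acts with the HUSH silencing complex, were at -0.12 ± 0.042 and -0.10 ± 0.036, each below the batch's Water mean in all 9 Acute mice.

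On the higher side the smallest p values in Acute mice were those of *Zfp771*, *Zfp219*, *Zfp775*, *Zfp930* and *Zfp688*. *Zfp771* was at 0.18 ± 0.050 (edgeR adjusted p = 0.384), with 8 of 9 Acute mice above the Water mean of their batch. *Zfp775* was at 0.22 ± 0.082 (edgeR adjusted p = 0.462) and was above that mean in 9 of 9. Within batches, 7 members were lower and 4 higher in the first (all genes 3.71% lower and 4.09% higher; median -0.012), and 15 lower and 6 higher in the second (2.51% and 2.63%; median -0.023). As shares of the members these are 2.40% and 1.37%, and 5.14% and 2.05%.

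In Chronic mice compared with Water, no member passed an adjusted p of 0.05 (lowest 0.180, for *Zfp955a*), as against 0.0184% of all genes. At an unadjusted p under 0.05, 43 members were lower, 14.7% of them, where the share over all genes was 5.65%, and 6 were higher, 2.05%, where it was 4.81%. Among the 11723 genes with a mean of 100 or more counts, 6.69% were lower and 5.77% higher. The median log2 fold change of the members was -0.028 (all genes 0.0022), and 199 of 292 (68.2%; all genes 49.0%) were fitted below 0. Fitted differences were small throughout, from -0.29 for *Zfp189* to 0.23 for *Zfp775*.

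**Figure D2:**
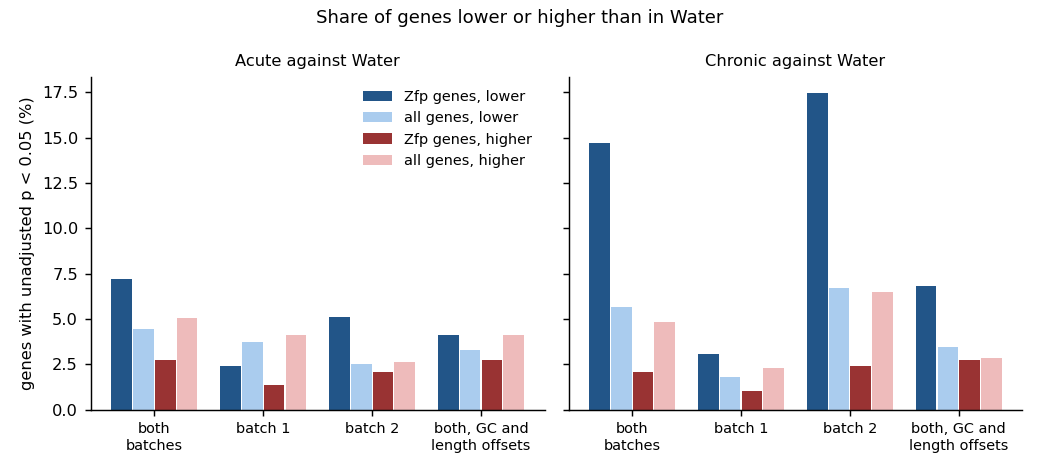
Percentage of genes with an unadjusted edgeR p under 0.05 that were lower (blue) or higher (red) than in Water, for the members (dark) and all 16266 genes tested (pale), with both batches fitted together, each batch within a joint fit, and both with GC content and length offsets. In Chronic mice the lower members reach 14.7% in both batches together and 17.5% in the second, 3.08% in the first, and 6.85% with the offsets.

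*Zfp955a*, a KRAB gene on chromosome 17 (chr17:33239718-33255145), had the smallest p. In the first batch it ran from 195.7 to 218.3 normalised counts in Water mice (median 209.8) and from 175.3 to 199.9 in Chronic mice (median 198.5). In the second batch Water mice ran from 149.2 to 193.0 (median 188.0) and Chronic mice from 149.5 to 159.7 (median 152.4). Water mouse 3 of the second batch was the lowest of its group and lay at the level of the Chronic mice. All 9 Chronic mice were below the Water mean of their batch, and the fold change was -0.20 ± 0.049 on the log2 scale (edgeR adjusted p = 0.180; exact permutation p = 0.00155). Its protein is 95.4% identical to that of the neighbouring *Zfp955b* (-0.060, edgeR adjusted p = 0.664), so reads of the pair may have been divided with error.

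*Zfp770* encodes a protein of 10 fingers without the KRAB pattern. It ran from 510.4 to 553.9 normalised counts in Water mice of the second batch (median 528.7) and from 457.0 to 499.9 in Chronic mice (median 472.8), with no overlap. In batch 1 the ranges overlapped, 530.7 to 565.8 against 505.2 to 550.0. The fold change was -0.12 ± 0.035 (edgeR adjusted p = 0.216; exact permutation p = 0.000340), and all 9 Chronic mice were below the Water mean of their batch.

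*Zfp189*, below the Water mean in all Acute mice, was also among the lowest in Chronic mice, at -0.29 ± 0.083 (edgeR adjusted p = 0.222; exact permutation p = 0.00618); the same Water mice serve both comparisons. Its Chronic mice ran from 184.3 to 214.5 normalised counts in the first batch, inside the Water range of 160.1 to 253.8, and from 138.3 to 192.7 in the second, wholly below the Water range of 206.7 to 238.4. The fold change was -0.061 in batch 1 and -0.43 in batch 2. *Zfp638* showed the same division, at -0.019 in batch 1 and -0.18 in batch 2 (-0.12 ± 0.036 in all; edgeR adjusted p = 0.240). *Zfp407*, at -0.20 ± 0.060 (edgeR adjusted p = 0.234), rests on the second batch, since it had 2.86 to 6.01 normalised counts per mouse in the first; its exact permutation p over both batches was 0.251.

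Higher values in Chronic mice were led by *Zfp219*, *Zfp771*, *Zfp775*, *Zfp746* and *Zfp580*. *Zfp771* ran from 293.2 to 304.5 normalised counts in Water mice of the first batch (median 298.4) and from 311.9 to 354.2 in Chronic mice (median 314.0). In the second batch it ran from 339.6 to 458.1 (median 391.9) and from 433.1 to 499.1 (median 454.7), so the groups were apart in the first batch and overlapped in the second. The fold change was 0.19 ± 0.050 (edgeR adjusted p = 0.186; exact permutation p = 0.000588), with 9 of 9 Chronic mice above the batch's Water mean. *Zfp219*, which encodes a partner of SOX9, was at 0.15 ± 0.039 (edgeR adjusted p = 0.186), 0.17 in batch 1 and 0.14 in batch 2, again in 9 of 9 mice; it overlaps *Arhgef40*. *Zfp746*, which encodes the parkin substrate PARIS, was at 0.080 ± 0.035 (edgeR adjusted p = 0.420). *Zfp580* was lower in the first batch (-0.11) and higher in the second (0.28).

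**Figure D3:**
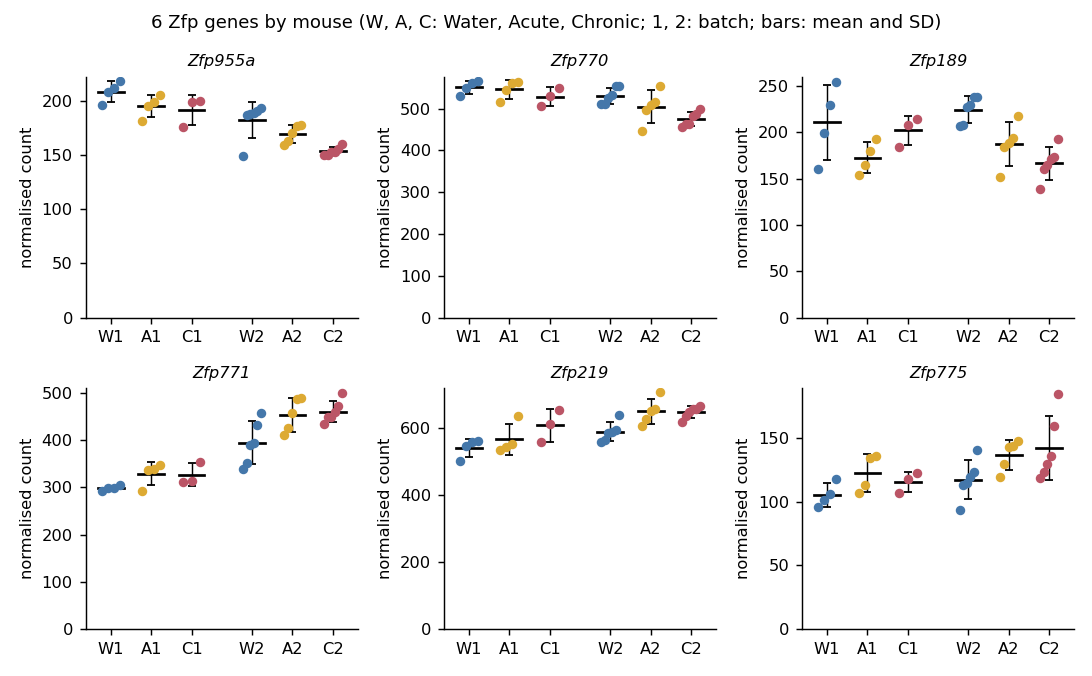
Normalised counts of 6 members in each mouse, by group (W Water, A Acute, C Chronic) and batch (1, 2), from 0 on a linear axis; points are mice and bars are the mean and SD. *Zfp955a*, *Zfp770* and *Zfp189* lie lower in the Chronic mice of the second batch than in its Water mice, with 1 low Water mouse for *Zfp955a*, and *Zfp771*, *Zfp219* and *Zfp775* lie higher.

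The batches gave different counts in the Chronic comparison. In the first, 9 members were lower (3.08%; all genes 1.79%) and 3 higher (1.03%; all genes 2.3%), with a median log2 fold change of -0.0034. In the second, 51 were lower (17.5%; all genes 6.69%) and 7 higher (2.40%; all genes 6.48%), with a median of -0.043. Across the 292 genes the fold changes of the batches, which share no mouse, had a Pearson r of 0.081 for Chronic and 0.23 for Acute mice, as a description over genes that are not independent. Fitted values had the same sign in both batches for 156 of 292 genes in Chronic mice (107 lower, 49 higher) and 169 in Acute mice (107 lower, 62 higher). In Chronic mice 52.4% of the members were fitted lower in batch 1 and 67.5% in batch 2 (all genes 50.6% and 49.6%). For Acute mice these shares were 54.8% and 60.6% (all genes 49.7% and 48.8%). Such shares alone give the same sign in many genes, and the count over all genes is not given. No agreement between batches is read from these counts.

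A term for the difference between batches was then fitted. For Chronic against Water no member passed an adjusted p of 0.05 (lowest 0.715; all genes 0.00615%). At an unadjusted p under 0.05, 19 members (6.51%; all genes 3.03%) were more negative and 7 (2.40%; all genes 3.12%) more positive in the second batch. For Acute against Water no member passed either (all genes 0.0%), and 6 (all genes 2.02%) and 7 (all genes 2.1%) differed in the respective directions. For Chronic mice the smallest p belonged to *Zfp938*, a KRAB gene on chromosome 10 with -0.33 in batch 1 and 0.073 in batch 2, and to *Zfp580*.

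Chronic and Acute mice were also compared directly. No member passed (lowest edgeR adjusted p 0.998; all genes 0.0%). At an unadjusted p under 0.05, 11 members (3.77%; all genes 2.5%) were lower and 4 (1.37%; all genes 1.95%) higher in Chronic mice, with a median of -0.011. *Zfp945*, *Zfp781*, *Zfp410*, *Zfp882* and *Zfp286* had the smallest p among lower values, and *Zfp579*, *Zfp251*, *Zfp853*, *Zfp831* and *Zfp747* among higher ones. *Zfp410*, whose protein drives the chromatin remodeller gene *Chd4*, was at -0.12 and *Zfp781* at -0.36. A difference between single and repeated access was thus not detected at this number of mice.

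Read by mouse, the shift of the list was small. For each mouse, the median over members of log2 CPM minus the gene's Water mean in that batch was taken; Water mice lie near 0 by construction. In the second batch it ran from -0.015 to 0.024 in Water mice (median -0.0035), from -0.035 to -0.010 for the Acute animals (median -0.018) and from -0.074 to -0.019 for the Chronic ones (median -0.040), so Chronic and Water mice did not overlap. Batch 1 gave -0.0065 to 0.020 for Water, -0.034 to 0.012 for Acute and -0.017 to 0.016 for Chronic mice, with overlapping ranges.

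**Figure D4:**
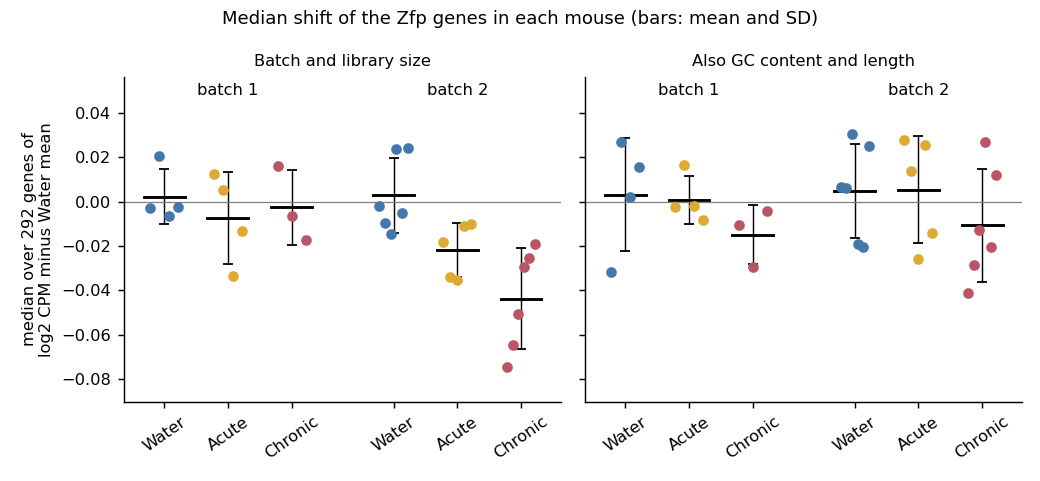
Median over the 292 members of log2 CPM minus the gene's Water mean of the same batch, for each mouse (points), with mean and SD of each group; the left panel uses normalised libraries and the right panel also removes each mouse's trend on GC content and length. On the left the Chronic mice of the second batch lie between -0.074 and -0.019, below its Water mice, and on the right they lie between -0.041 and 0.027, where 2 of the 6 lie below every Water mouse of the batch (-0.021 to 0.030) and the others within that range. The offsets also move the median over all genes tested, to -0.013 to 0.034 in these Chronic mice and -0.022 to 0.031 in these Water mice. In each of these 6 Chronic mice the members' median lay below that mouse's median over all genes. The Water mice lay on both sides of theirs.

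GC content was set beside these values. The exons of the members had a median GC content of 47.2%, against 50.5% over all genes tested, with 44.8% for genes with the KRAB pattern and 51.0% for the others. Over all genes, the log2 level of a mouse relative to its batch rose by a median of 0.024 per 10 points of GC in the Chronic mice of the second batch and fell by a median of 0.023 in its Water mice, where Water mouse 4 was the most extreme at -0.10. The medians in batch 1 were 0.032 in Chronic and -0.023 in Water mice, and the members' median fold change in that batch was -0.0034. The part of GC content in the result was not tested. Among the 97 members with the lowest GC content, up to 44.5%, 25 were lower in Chronic mice (25.8%) and none was higher, with a median of -0.058. Of all 2864 genes in that range, 12.5% were lower and 1.01% higher, with a median of -0.044. Among the 98 members above 50.7% GC, 6 were lower (6.12%) and 6 higher, with a median of 0.0059, and of the 7873 genes in that range 1.88% were lower and 8.31% higher, with a median of 0.030. Within batch 1 the members of lowest GC content had a median of -0.028 (all genes in that range -0.025). Those above 50.7% GC had 0.0071 there (all genes in that range 0.013).

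Without Water mouse 4 of the second batch, 30 members were lower in Chronic mice (10.3%; all genes 4.15%) and 13 in Acute mice (4.45%; all genes 3.18%). When each mouse's trend on GC content and length was removed by offsets in the same fit, 20 members were lower in Chronic mice (6.85%; all genes 3.44%) and 8 higher (2.74%; all genes 2.86%), with a median of -0.012. For Acute mice 12 were lower (4.11%; all genes 3.31%) and 8 higher (2.74%; all genes 4.11%), and the median was 0.0040. The Chronic fold change of *Zfp189* was -0.24 with the offsets, that of *Zfp955a* -0.14, of *Zfp770* -0.057, of *Zfp771* 0.12, of *Zfp219* 0.079 and of *Zfp775* 0.21 (0.23 without them), each closer to 0 than before.

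**Figure D5:**
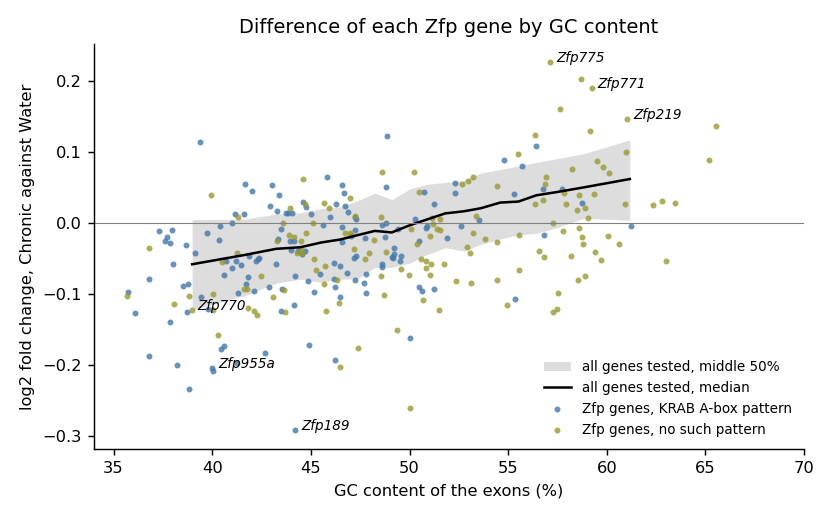
Log2 fold change of each coding member, Chronic against Water in both batches, against the GC content of its exons; the black line and grey band are the median and the middle 50% of all genes tested in 20 bins of GC content. The members follow the slope of all genes, with *Zfp189* and *Zfp955a* low and *Zfp775*, *Zfp771* and *Zfp219* high.

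Classes of members were set side by side for Chronic against Water, where 5.65% of all genes were lower and 4.81% higher. Of the 144 genes with the KRAB pattern, 19 were lower and 1 higher at an unadjusted p under 0.05 (median -0.039), and of the 145 without it, 24 were lower and 5 higher (median -0.025). With the GC content and length offsets these became 7 (4.86%) and 4 (median -0.011), and 13 (8.97%) and 4 (median -0.020), where 3.44% of all genes were lower and 2.86% higher. By number of fingers, 6 of 49 members with 0 to 4 fingers were lower, 8 of 80 with 5 to 9, 14 of 102 with 10 to 14, and 15 of 58 with 15 or more. With the offsets these counts were 4 (8.16%), 4 (5.0%), 5 (4.9%) and 7 (12.1%). The same classes had median exon GC contents of 50.8%, 49.5%, 46.2% and 44.4%. Zinc finger genes of other names, the 54 *Zbtb*, *Zkscan* and *Zscan* genes with a mean of 100 or more counts, had 6 lower and none higher (median -0.041), and 0 lower with the offsets.

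Position in the genome was examined through the runs of neighbouring members. The 13 genes from *Zfp712* to *Zfp273* on chromosome 13 (chr13:67038596-67827002), all with the KRAB pattern, had a median Chronic fold change of -0.050, and 11 were fitted below 0. The 13 genes from *Zfp948* to *Zfp13* on chromosome 17 (chr17:21567008-23599487) had a median of -0.053, again with 11 below 0 and 3 lower at an unadjusted p under 0.05. All 7 genes from *Zfp607b* to *Zfp850* on chromosome 7 (chr7:27689340-28014115) were fitted below 0 (median -0.072). In contrast the 9 genes from *Zfp398* to *Zfp775* on chromosome 6 (chr6:47835661-48623227) had a median of 0.043, with 3 below 0. These runs are examples, and the medians of the runs not described ran from -0.077 to 0.027. Of the members in runs 65.2% were fitted lower, and of those outside runs 70.1% (all genes 49.0%). Taken by batch (1, then 2), the medians were -0.032 and -0.054 for the chromosome 13 genes, 0.0015 and -0.080 for those on chromosome 17, 0.011 and -0.11 for those on chromosome 7, and 0.065 and 0.034 for those on chromosome 6. In all, 13 of 115 members in runs were lower (11.3%) and 30 of 177 outside them (16.9%), against 5.65% of all genes. With the offsets these became 6 (5.22%) and 14 (7.91%), against 3.44%.

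The proteins that act on RNA and ribosomes were 7 members, *Zfp36* of the list being below the count limit. *Zfp106* (-0.10 ± 0.034, edgeR adjusted p = 0.272) and *Zfp638* were lower in Chronic mice at an unadjusted p under 0.05, and *Zfp106*, *Zfp326* and *Zfp638* in Acute mice (all genes 5.65% and 4.45% lower). With the offsets 2 of the 7 were lower in Chronic mice and 1 in Acute mice (all genes 3.44% and 3.31%). *Zfp106* was at 0.0064 in batch 1 and -0.16 in batch 2. *Zfp207*, a spindle and splicing protein (-0.019), *Zfp346*, which binds double-stranded RNA (0.052), *Zfp598*, a ubiquitin ligase for collided ribosomes (0.0062), and *Zfp622*, a factor of large ribosomal subunit maturation (0.028), had values near 0.

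Chromatin and transcription cofactors were 15 members, of which 5 were lower and none higher in Chronic mice at an unadjusted p under 0.05 (all genes 5.65% lower and 4.81% higher), with a median of -0.060. These were *Zfp451*, a SUMO ligase (-0.12 ± 0.038, edgeR adjusted p = 0.241), *Zfp281*, a regulator of pluripotency (-0.10), *Zfp592*, a partner of ZMYND8 (-0.081), *Zfp644*, which works with the histone methyltransferase G9a (-0.067), and *Zfp711*, an X-linked gene of intellectual disability (-0.12). *Zfp281* was at 0.038 in batch 1 and -0.19 in batch 2. Within batch 1, 1 of the 15 was lower and 1 higher (all genes 1.79% and 2.3%), and within batch 2, 5 were lower and none higher (all genes 6.69% and 6.48%). *Zfp711* was below the batch's Water mean in all 9 Chronic mice. The other ZMYND8 partners, *Zfp532* and *Zfp687*, were at 0.0057 and 0.027. With the offsets 2 of the 15 were lower (all genes 3.44%), with a median of -0.037. In Acute mice 1 of the 15 (6.67%; all genes 4.45%), *Zfp148*, was lower (-0.079), and none was with the offsets (all genes 3.31%).

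None of the 9 genes of neural development and disease was lower or higher at an unadjusted p under 0.05, in Chronic or Acute mice. Over all genes 5.65% were lower and 4.81% higher in Chronic mice, and 4.45% and 5.07% in Acute mice. Within batch 1, 1 of the 9 was lower and 1 higher in Chronic mice (all genes 1.79% and 2.3%). Within batch 2 none was (all genes 6.69% and 6.48%). *Zfp365* ran from 9053 to 13212 normalised counts over all mice and had a Chronic fold change of 0.010 ± 0.048. *Zfp24* and *Zfp488*, both tied to oligodendrocyte maturation, were at -0.043 and -0.024. *Zfp804a*, a schizophrenia risk gene, was at -0.092 ± 0.084, and *Zfp423* at 0.16 ± 0.12, within the wide spread between mice given above. *Zfp521* and *Zfp503*, developmental regulators of striatal and other neurons, were at 0.044 and -0.075. The value of *Zfp521* joins opposite directions: it was higher in batch 1 (0.39) and lower in batch 2, a difference between batches of -0.55.

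Of the KRAB silencers with known targets, *Zfp568* and *Zfp708* were below the count limit. *Zfp445* was at -0.10 ± 0.042 in Acute mice, all 9 below the batch's Water mean (edgeR adjusted p = 0.468), and at -0.080 in Chronic mice. *Zfp57*, the other guardian of imprinted loci, was at -0.085 and -0.0073 in the same comparisons. *Zfp932*, which silences endogenous retroviruses, was at -0.13 ± 0.052 in Chronic mice (edgeR adjusted p = 0.377), and *Zfp809*, which recognises retroviral primer binding sites, at -0.085 ± 0.066.

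The co-repressor machinery of the KRAB proteins was read from a list of 12 genes, 11 of which were tested. None passed an adjusted p of 0.05 in any comparison. *Trim28* itself was at 0.045 ± 0.030 in Acute and 0.019 ± 0.030 in Chronic mice. In Chronic mice *Cbx5*, a heterochromatin protein (-0.068 ± 0.028, edgeR adjusted p = 0.368), and *Atf7ip*, a partner of the methyltransferase SETDB1 (-0.084 ± 0.041, edgeR adjusted p = 0.474), were lower at an unadjusted p under 0.05 (all genes 5.65%), and *Setdb1* was at -0.054 ± 0.035. The median of the list was -0.057. With the GC content and length offsets the median in Chronic mice was -0.025 and none of the 11 was lower (all genes 3.44%). In Acute mice 1 of the 11, *Smarcad1* (-0.10 ± 0.041, edgeR adjusted p = 0.469), was lower (all genes 4.45%). With the offsets 1 of the 11 was lower in Acute mice (all genes 3.31%). Within batches 3 were lower in the first and none in the second (all genes 3.71% and 2.51%).

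Some members have close copies. 8 members shared 90% or more of their protein with another *Zfp* gene, among them *Zfp874a* and *Zfp874b* (92.9%; Chronic fold changes -0.050 and -0.050) and *Zfp966*, identical in protein to *Zfp967*, *Zfp968* and *Zfp969*. Reads of such genes are divided by estimate, so their values are uncertain. Without these 8 members, 42 of 284 were lower in Chronic mice (14.8%), and without the 41 that overlap another tested gene, 37 of 251 (14.7%), against 5.65% of all genes.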

How the data were processed

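Amygdala RNA of 28 mice was sequenced by the authors. Per the labels and methods, mRNA was enriched and rRNA removed, paired-end reads were quantified with Salmon 0.14.1 on GRCm38 with GENCODE M21, and tximport gave gene tables. The deposited values are estimated counts rounded to whole numbers, 1 table per batch, before any batch adjustment. The quantification divides reads of similar genes by estimate.

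The 49477 genes in both tables were joined, and 16266 with a mean of 10 or more counts were tested. edgeR 4.0.16 in R 4.3.3 was used with TMM normalisation, a batch term, all 3 groups in 1 fit, the quasi-likelihood test and Benjamini-Hochberg adjustment over all genes tested. Within-batch values and the term for their difference came from a joint fit with batch by group terms. The fit was tested on simulated data. Exact permutation tests were 2-sided, with labels permuted within batches; 30 were computed, on genes picked for a small p, and are unadjusted. Normalised counts are scaled by TMM library sizes. Offsets removed each mouse's spline trend on GC content and length. KRAB and C2H2 patterns were searched in translated coding sequences.

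Genes were named by a rule: the 5 smallest p in each direction and comparison, those of fixed role lists, the extremes of level, spread and the count limit, the smallest p of the batch difference, genome runs and near-identical proteins; *Zfp869*, *Zfp319* and *Zfp532* are named for values seen. The members and lists were chosen with earlier results of these data known. Alternatives were DESeq2 1.42.0, limma 3.58.1 with quality weights, ComBat-seq in sva 3.50.0 followed by DESeq2, other normalisations and filters, a replicate block, offsets, the compared groups alone, each batch alone and leaving out each mouse.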

Additional observations from a re-analysis of the deposited data

Results flagged for a closer look

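The values of 72 named members, and the median over all members, were searched in each of the 3 groups for a mouse far from the others by Dixon's test, on log2 CPM with the mean of each group and batch removed. Of 219 sets of values searched, 7 had such a mouse, where chance gives about 1 in 20. Values are the mouse's distance from the mean of its group and batch. In the second batch, *Zfp955a* was at -0.2828 in Water mouse 3, and leaving that mouse out lowers the adjusted p of the Chronic comparison below 0.05. Among Acute mice of that batch, *Zfp622* was at -0.2096 in mouse 3, and *Zfp711* at -0.2376 and *Zfp804a* at 0.3935 in mouse 4. Among its Chronic mice, *Zfp458* was at 0.3707 in mouse 5, *Zfp688* at -0.4418 in mouse 2 and *Zfp809* at -0.2991 in mouse 1.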

How the results depend on the processing

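No member passed an adjusted p of 0.05 in any comparison under any of the 13 alternatives, except *Zfp771* in Chronic against Water under ComBat-seq followed by DESeq2 (1 member). Counts at an unadjusted p under 0.05 moved by over 1.5 times as follows, and the cause was not tested. The share of all genes lower in Chronic mice moved too: 5.65% in the main fit, 3.44% with the offsets, 4.15% without Water mouse 4. Shares over all genes are not given for the other settings, including the replicate block and the other mice left out. There a change in the members cannot be told from a change in all genes. With GC content and length offsets, 12 members were lower in Acute, 20 in Chronic, and 7 lower and 2 higher in Chronic against Acute mice. In the last comparison 2.33% of all genes were lower and 1.49% higher with the offsets. In the first batch alone, 9 were lower and 4 higher in Acute, 8 and 2 in Chronic, and 5 and 8 in Chronic against Acute mice. In the second batch alone, 5 were higher in Acute, and 7 lower and 2 higher in Chronic against Acute mice. Without a count filter, 7 were lower in Chronic against Acute mice. A change of direction was sought only for named members with an unadjusted p under 0.05 in the main fit. Among these, in the first batch alone, the log2 fold change turned for *Zfp580* in Acute (-0.013) and Chronic mice (-0.11). It also turned for *Zfp106* (0.0059), *Zfp281* (0.037) and *Zfp407* (0.093) in Chronic mice.

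The labels give groups of the second batch the same replicate numbers. Same-numbered mice had correlations from -0.346 to 0.338 over 16 pairs and others from -0.364 to 0.422 over 80, so the numbers were not read as pairs. With the replicate block 5 members were higher in Acute mice. With the replicate block and the offsets, 11 were lower in Acute, 21 in Chronic, and 5 lower and 2 higher in Chronic against Acute mice.

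Leaving out each of 28 mice gave 13 to 25 lower and 5 to 9 higher members in Acute, 29 to 45 and 4 to 9 in Chronic, and 4 to 12 and 2 to 6 in Chronic against Acute mice. Members passing an adjusted p of 0.05 in Chronic against Water were 0 to 1; the 1 was *Zfp955a* (adjusted p = 0.0438, edgeR) without Water mouse 3 of the second batch. Counts moved by over 1.5 times in these cases. Lower members in Acute mice were 13 without Water mouse 4, and higher members were 5 without Acute mouse 34, Water mouse 40 or Water mouse 6. In Chronic against Acute mice, lower members were 4 without Acute mouse 33 or Chronic mouse 2 and 7 without Acute mouse 1 or Chronic mouse 1, and higher members were 2 without Acute mouse 3 or Chronic mouse 5.

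The difference of the mouse medians over both batches stayed below 0 under the 5 settings run for it (2 other normalisations, 2 other filters, and offsets), at -0.0203 to -0.00070 for Acute and -0.0333 to -0.0162 for Chronic mice, and from -0.0213 to -0.0133 and from -0.0383 to -0.0271 without 1 mouse. These sizes compare with an SD between mice of 0.0177. Only 3 Chronic mice in the first batch limit what that batch can show.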
